A study of Homo sapiens with 12 samples.

Results

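The proteasome genes were taken as the rows of the deposited count table whose symbol is PSM followed by a letter from A to G and a number, with at least 10 counts in each of the 12 labelled libraries. Of the 58735 rows, 48 symbols fit this pattern and 46 passed the minimum. The other 2, PSMA8 and PSMB11, which encode the alpha subunit of testis and the beta subunit of thymus, had 0 counts in every library, which allows a level of up to 0.194 CPM (the count scaled to 1000000 reads of the library) in the smallest library. The 46 genes were divided by role into 7 alpha and 7 constitutive beta subunits of the 20S core, 6 ATPases and 11 other subunits of the 19S cap, 5 genes of the immunoproteasome and its activator (PSMB8, PSMB9, PSMB10, PSME1 and PSME2), 7 assembly factors (PSMD5, PSMD9, PSMD10 and PSMG1 to PSMG4) and 3 other regulators (PSME3, PSME4 and PSMF1).

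The libraries were made from THP1 cells, an established human monocytic leukaemia line, in 4 groups of 3 libraries. THP1 cells were kept for 24 h in endothelial medium in the upper insert of a transwell, either alone (THP1 mono-culture) or above HUVECs, endothelial cells of the human umbilical vein, that had been given the vehicle DMSO (control ECs), had been made senescent with etoposide, an inhibitor of topoisomerase II that damages DNA (senECs), or had been made senescent and then given EGCG, a catechin of green tea (EGCG-treated senECs). All 12 libraries, mono-culture included, come from cells then given 100 ng/ml LPS for 2 h, so that no library shows THP1 cells without LPS, and the endothelial cells themselves were not sequenced. Replicate numbers run 1, 2 and 3 without etoposide and 1, 2 and 5 with it. Since nothing in the labels says that replicates were separate cultures, the p-values measure the spread between these libraries, which may be technical.

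The proteasome degrades proteins that carry a chain of ubiquitin. Its 20S core is a barrel of stacked rings in which the alpha subunits form the gate and the beta subunits the chamber, and PSMB6, PSMB7 and PSMB5 carry the caspase-like, trypsin-like and chymotrypsin-like sites. The 19S cap binds ubiquitin chains, and its ring of ATPases unfolds the substrate and threads it into the core. Interferon and inflammatory signals exchange the catalytic subunits for PSMB9, PSMB10 and PSMB8 and raise the PSME1 and PSME2 activator, a form of the enzyme that yields peptides for MHC class I and is abundant in monocytes. The factor NFE2L1 raises the genes of the core and cap together when degradation falls short, through antioxidant response elements in their promoters.

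Promoter sequence was drawn from RefSeq on GRCh38.p14, which held 49 windows for 40 of the 46 genes and none for PSMA7, PSMB1, PSMB6, PSMB7, PSMD4 and PSMG3. The stretches of PSMB3 and PSMC3 are shown because these genes had the smallest p-values between co-culture and mono-culture, and that of PSMB9 because it shares its promoter with TAP1, the transporter that carries the peptides. They lie on chromosomes 17 (chr17:38752491-38752735, plus strand), 11 (chr11:47426474-47426689, minus strand) and 6 (chr6:32853979-32854147, plus strand) before the start sites, and each is the longest part of its window of 250 bases that lies in no exon of GENCODE 29. The sequences run 5′ to 3′ on the strand of the gene, and capitals mark the letters TGACNNNGC of the antioxidant response element on either strand.
PSMB3: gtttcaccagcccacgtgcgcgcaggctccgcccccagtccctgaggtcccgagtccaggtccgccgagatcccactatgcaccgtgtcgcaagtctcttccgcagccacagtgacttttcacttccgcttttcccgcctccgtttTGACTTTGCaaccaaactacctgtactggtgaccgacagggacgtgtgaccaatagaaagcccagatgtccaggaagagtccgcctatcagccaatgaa
PSMC3: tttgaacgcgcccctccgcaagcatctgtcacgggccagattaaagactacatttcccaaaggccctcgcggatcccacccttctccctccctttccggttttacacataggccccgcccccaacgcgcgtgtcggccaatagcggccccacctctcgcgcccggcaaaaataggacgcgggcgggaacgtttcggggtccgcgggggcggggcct
PSMB9: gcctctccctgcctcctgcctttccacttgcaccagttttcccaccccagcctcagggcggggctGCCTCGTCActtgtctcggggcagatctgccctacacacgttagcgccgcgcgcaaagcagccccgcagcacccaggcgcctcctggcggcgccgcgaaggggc
The letters TGACNNNGC occurred in 13 of the 49 windows (26.5%), against 10.9% of all 35116 windows of this length, and the 13 genes came unevenly from all 7 classes. Of the genes with a window, 4 of 6 assembly factors, 3 of 5 immunoproteasome genes and 1 of 3 other regulators held a match. In the core and cap these were 1 of 6 alpha subunits, 1 of 4 beta subunits, 1 of 6 ATPases and 2 of 10 other cap subunits. PSMB3 held 1 match in the stretch shown, PSMB9 held 1 on the other strand, and PSMC3 held none there. The interferon-stimulated response element was searched on both strands as GAAA, any 2 bases and GAAA and occurred in 5 of the 49 windows (10.2%), against 3.02% of all windows. These windows belonged to PSMA4, PSMB4, PSMG4, PSMB10 and PSME2, so not to the immunoproteasome alone. The same letters, in capitals here, stood close before the start of PSMB10 (chr16:67936852-67936881, minus strand) and of PSME2 (chr14:24146619-24146648, minus strand), and these sites are shown because both genes belong to the interferon-inducible form. PSMG4, an assembly factor, held GAAAGCGAAA as well, 23 bases before its start site.
PSMB10: gggtaaaggcGAAAGCGAAAgcaggaagta
PSME2: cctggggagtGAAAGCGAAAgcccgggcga
The gamma-activated sequence, TTCNNNGAA, which reads alike on both strands, occurred in 6 of the 49 windows (12.2%), against 6.57% of all windows. These belonged to PSMA2, PSMB5, PSMB8, PSMC4, PSMD3 and PSME3, of which only PSMB8 is an immunoproteasome gene. No matches of different motifs shared bases, and a match shows letters, not binding.

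Total counts lay between 15439836 and 22092600 per library. The monocyte markers fitted the label, with all 10 detected (summed level 583 to 1101 CPM over the 12 libraries), although CD68 had just 2 to 16 counts. The 10 endothelial markers summed to between 2.97 and 7.07 CPM in every group, mono-culture included, with CDH5 at 0 in 10 libraries and MMRN1 in all 12, and CD3D, CD3E and CD2 of lymphocytes were at 0 throughout. In 1 library the genes stood apart: senEC replicate 5 gave the highest value of the 12 libraries for 37 of the 46 genes, and its TMM factor, which scales the library size, was the lowest at 0.912. The lowest value fell most often in mono-culture replicate 1 (13 genes) and control EC replicate 2 (11 genes). Comparisons that include senECs are therefore given over the 46 genes, and for the genes shown by library where a fold change is printed, with and without senEC replicate 5.

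The 46 genes together took 5329.8, 5643 and 5627 CPM in the 3 mono-culture libraries, 5585, 5396 and 6249 CPM with control ECs, 5824, 6252 and 7673 CPM with senECs, and 5614, 6496 and 6178 CPM with EGCG-treated senECs. Only senEC replicate 5 lay clear of the others, and the ranges of the 4 groups overlapped except that both senECs and mono-culture stayed apart, with 5824 CPM as the lowest senEC library and 5643 CPM as the highest of mono-culture. A summed level does not tell fewer cells of a kind from less RNA per cell. The plot of log2 CPM by gene and library shows that the high values of senEC replicate 5 ran through the core, the cap and the immunoproteasome genes, while PSME3, PSME4, PSMF1 and PSMD5 stayed near their means there.

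**Figure D1:**
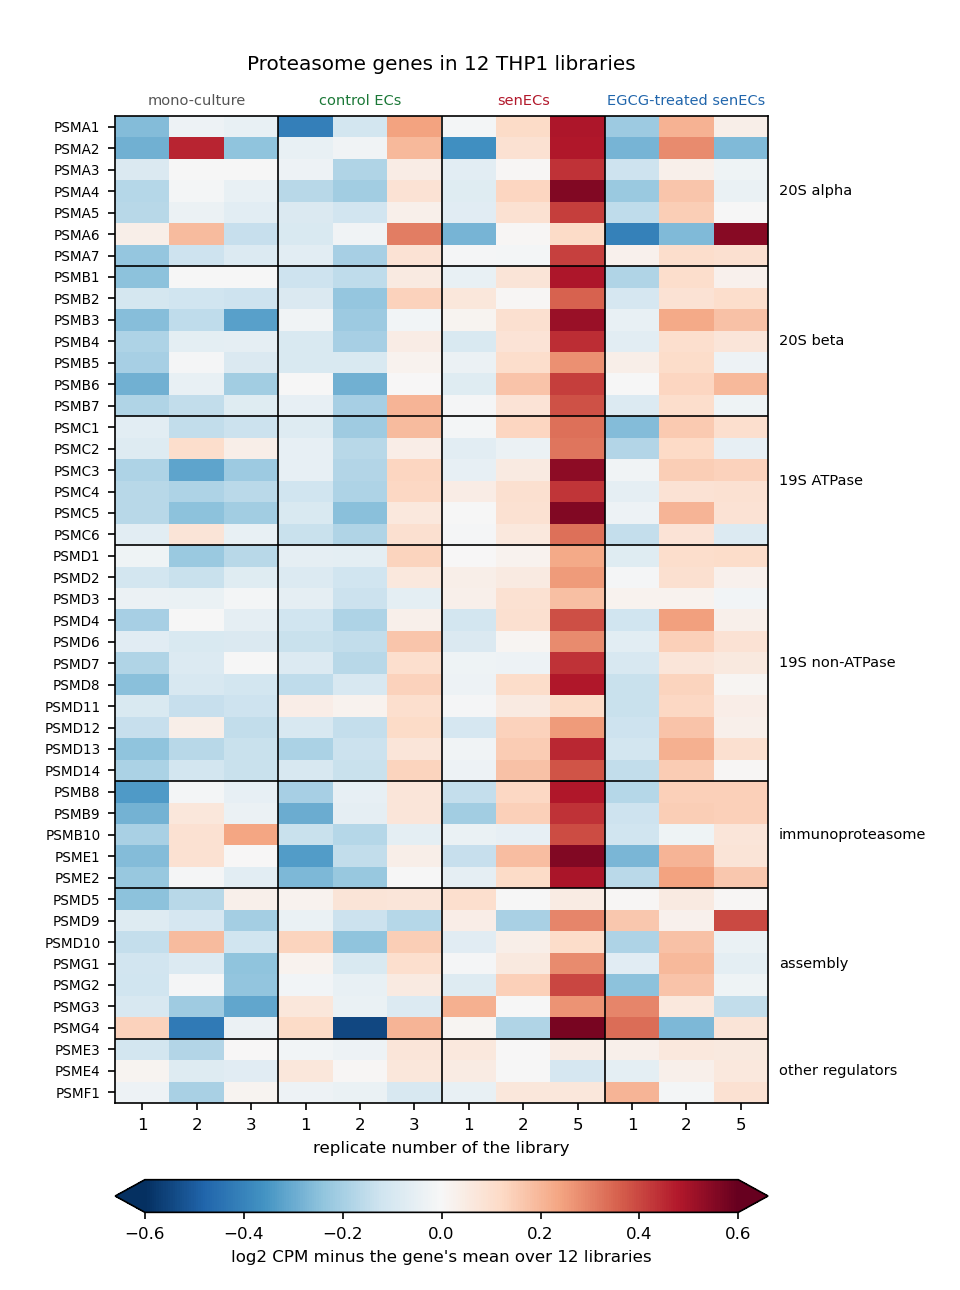
Each row is 1 of the 46 proteasome genes, by class, and each column 1 of the 12 libraries, by group and replicate number. Colour gives log2 CPM minus the mean of the gene over the 12 libraries, with red above and blue below; senEC replicate 5 is the highest library for 37 of the 46 genes.

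Transcript length moved with the same library. Among genes with at least 10 counts in every library and a principal transcript under 1500 bases, 1463 in all, the median deviation from the mean of the 12 libraries in senEC replicate 5 was 0.29 (log2 CPM), and among the 6423 genes of 3000 bases and over it was -0.06. The 20 proteasome genes of the short class had a median of 0.40 in this library, and the 11 genes of the long class, among them PSME4 and PSMD1, a median of 0.25. In this library the proteasome genes lay above genes of like length in both classes. Between groups they did so less evenly: for senECs against control ECs the median log2 fold change was 0.22 for the 20 short members against 0.19 for all short genes, and 0.14 for the 11 long members against -0.03 for all long genes. For EGCG-treated senECs against senECs it was -0.10 for both the short members and all short genes, and -0.08 for the long members against 0.02 for all long genes. The part of transcript length in these differences was not tested.

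Levels between genes were compared per length, as FPKM over all annotated exons of GENCODE 29. Over the 12 libraries PSMA7, an alpha subunit, had the highest mean of all 46 genes at 152 FPKM, with PSMB4, a structural beta subunit, next at 151 FPKM. The lowest beta subunit was PSMB2 at 34.7 FPKM, so that the 7 constitutive beta genes lay within 4.36-fold of each other. In the cap, PSMC3 was the highest ATPase at 106 FPKM and PSMC1 the lowest at 12.3 FPKM, and among the other cap subunits PSMD4, a ubiquitin receptor, reached 93.9 FPKM and PSMD6 10.3 FPKM. The immunoproteasome genes lay in the same range, from PSMB9 at 24.8 FPKM to PSMB8 at 69.2 FPKM, while the assembly factors were lower, from PSMG4 at 0.843 FPKM to PSMG1 at 20.8 FPKM. PSME3, which forms the nuclear activator, had 50.2 FPKM, and PSMF1, an inhibitor of the core, 9.06 FPKM. With the length of the principal transcript in place of all exons, PSMB4 was the highest gene at 338 FPKM, PSMB10 replaced PSMB9 as the lowest immunoproteasome gene at 44.6 FPKM, and PSMD9 was the lowest gene of all at 2.78 FPKM, so that the order of single genes depends on the length chosen.

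**Figure D2:**
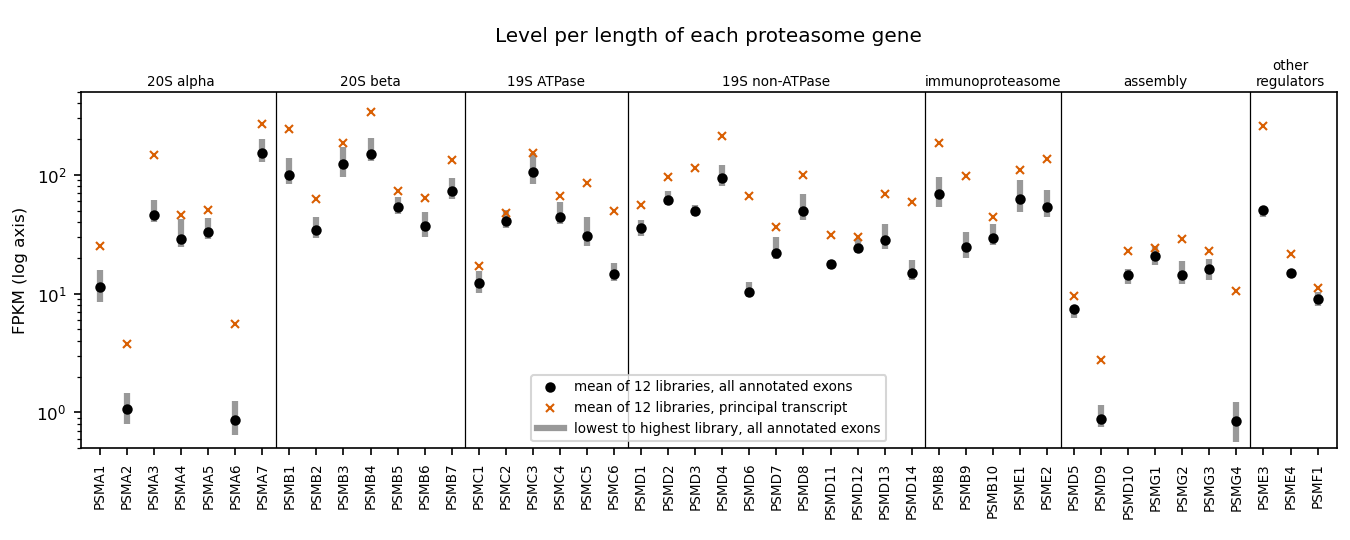
The level of each proteasome gene is plotted as FPKM on a log axis, with genes grouped by class. Dots are means of 12 libraries over all annotated exons, bars run from the lowest to the highest library, and crosses are means per length of the principal transcript; over all annotated exons PSMA2, PSMA6, PSMD9 and PSMG4 lie far below the other genes, and per principal transcript PSMG4 does not.

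Within the alpha ring, whose 7 members are present once in each ring, PSMA2 and PSMA6 were listed far below the rest, with PSMA6 the lowest over all exons at 0.871 FPKM and PSMA2 the lowest per principal transcript at 3.8 FPKM. PSMA1 lay below the other 4 by less. It had 11.4 FPKM, against 29.1 FPKM for PSMA4, the next lowest, and per principal transcript 25.1 against 46.2 FPKM. PSMA2 had 4.28 to 7.74 CPM and PSMA6 4.20 to 8.14 CPM over the 12 libraries, and PSMA1 had 28.1 to 52.2 CPM, whereas PSMA3, PSMA4, PSMA5 and PSMA7 had between 125 and 352 CPM. In GENCODE 29, 97.1% of the coding bases of PSMA2, 70.4% of those of PSMA6 and 88.6% of those of PSMA1 lie in exons of a second protein-coding gene model on the same strand (AC010132.3, AL121594.1 and AC018523.2). These second models were listed with 0 to 1, 1 to 7 and 0 to 1 counts per library. PSMD9, an assembly factor, shares 58.7% of its coding bases with AC069503.2, listed at 0 to 2 counts, and PSMB10 shares 58.3% with AC040162.1, listed at 58 to 139 counts. Levels of these 5 genes are therefore uncertain, and the part of the shared exons in them was not tested. Without strand the reads of PSMC1, 75.8% of whose exon bases lie opposite NRDE2, of PSMD7 (30.7%, AC009120.2) and of PSMB8 (20.6%, PSMB8-AS1) cannot be told from those of their partners either.

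No proteasome gene was called in any of the 7 comparisons by edgeR's quasi-likelihood test at an adjusted p of 0.05. The share of all 25873 genes called was 0% for senECs against control ECs, 0% for EGCG-treated senECs against senECs, 0% for EGCG-treated senECs against control ECs, 0.143% for control ECs against mono-culture, 0.309% for senECs against mono-culture, 0.213% for EGCG-treated senECs against mono-culture and 0.723% for the mean of the 3 co-cultures against mono-culture. DESeq2 on the same counts also called 0 of the 46 genes in 6 of the comparisons and 1, PSMB3, for senECs against mono-culture. In that comparison DESeq2 called 347 of all 25873 genes. The values that follow are therefore levels and differences below the threshold of the test, and they describe how the genes lay.

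For senECs against control ECs, the question of whether senescent endothelium alters the proteasome genes of the monocytes, 42 of the 46 genes had a log2 fold change above 0. This held for 56.6% of the 13903 genes that met the same minimum of 10 counts in every library, which are the background for the counts that follow. The median of the 46 genes was 0.20, with a range of -0.12 (PSMA6) to 0.37 (PSME1), against 0.03 for the 13903 genes and -0.01 for all genes tested. By class the median was 0.20 for the alpha and 0.24 for the beta subunits, 0.22 for the ATPases and 0.18 for the other cap subunits, 0.23 for the immunoproteasome, 0.17 for the assembly factors and 0.03 for the other regulators. At an unadjusted p under 0.05 there were 9 of the 46 genes, all higher with senECs (PSME2, PSMC5, PSMB3, PSME1, PSMD13, PSMA4, PSMC4, PSMB6 and PSMD3), where 4.33% of the background was higher at that p. Groups did not overlap for 3 genes, PSMD3, PSMB3 and PSMB10, all higher with senECs, against 7.06% of the background. Without senEC replicate 5 the median was 0.07, 38 genes lay above 0 and none of the 46 had an unadjusted p under 0.05. That fit kept control EC replicate 3, the highest control library at 6249 CPM over the 46 genes. Between the libraries of number 2, 43 of the 46 genes were higher with senECs (median difference 0.20 on the log2 CPM scale). Between those of number 1 this held for 32 (0.05). Leaving out other libraries moved the count of 9 as well, to 0 without control EC replicate 2, 3 without control EC replicate 1, 19 without control EC replicate 3 and 24 without senEC replicate 1. Over all 25873 genes the count at that p, in either direction, was 1709 with all libraries and 717 without senEC replicate 5. It moved to 898, 1490, 1945 and 2910 with the other libraries left out, in the order given.

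For EGCG-treated senECs against senECs, the question of whether EGCG given to the endothelium alters the same genes, 41 of the 46 genes lay below 0 and the median was -0.11, against 0 for all genes tested. Of the background, 47.4% lay above 0. The 5 genes above 0 were PSMD9 (0.15), PSMA6 (0.07), PSMF1 (0.07), PSME4 (0.03) and PSME3 (0.01), so that all 3 of the other regulators were among them. By class the median was -0.17 for the alpha subunits, -0.12 for the beta subunits, -0.14 for the ATPases, -0.08 for the other cap subunits, -0.13 for the immunoproteasome and -0.08 for the assembly factors. None of the 46 genes had an unadjusted p under 0.05, where 1.19% of the background did, and groups did not overlap for 1, PSMD3, which was lower, against 1.66% of the background. Without senEC replicate 5 the direction turned, with a median of 0.01 and 26 genes above 0. Between the libraries of number 2, 39 of the 46 genes were higher with EGCG-treated senECs (median difference 0.04 on the log2 CPM scale), while between those of number 1 this held for 12 (-0.07) and between those of number 5 for 5 (-0.33).

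For EGCG-treated senECs against control ECs 39 of the 46 genes lay above 0, against 56.7% of the background, and the median was 0.08. None had an unadjusted p under 0.05, where 3.71% of the background did, and groups did not overlap for 3 genes (PSMD3, PSMD9 and PSMF1, all higher), against 4.94%. This comparison shares its libraries with both others. The median was 0.01 with control EC replicate 2 left out and 0.13 with control EC replicate 3 left out.

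**Figure D3:**
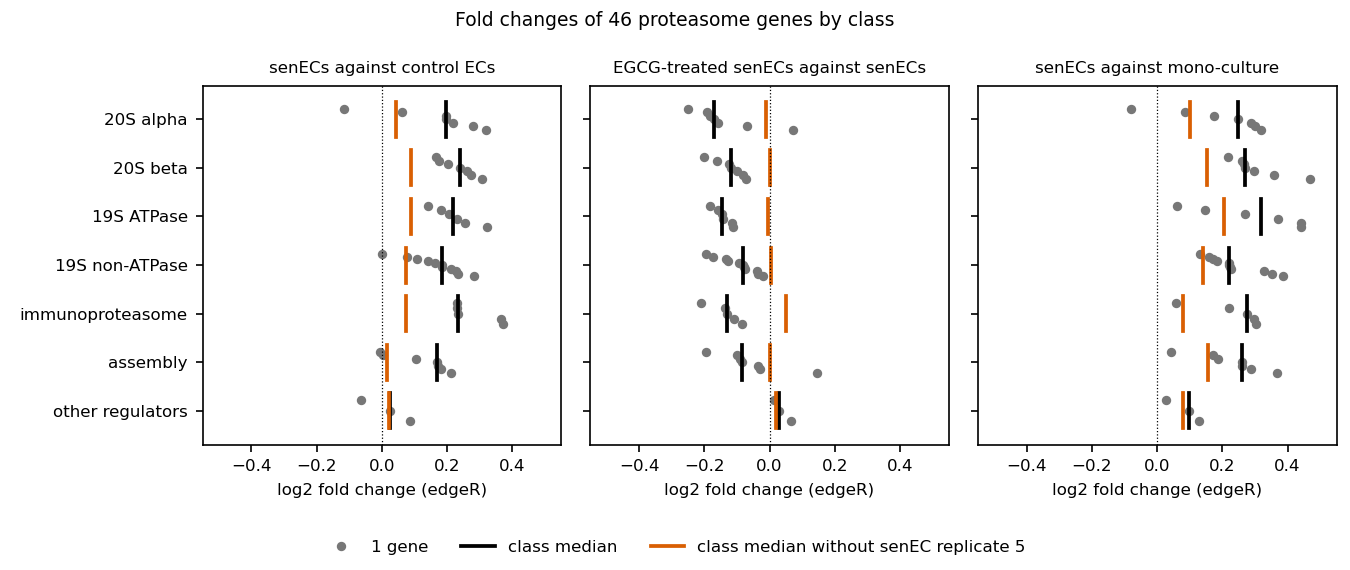
Each dot is the log2 fold change of 1 proteasome gene by edgeR, in 3 comparisons, and the rows are the 7 classes. Black lines are class medians, and orange lines the medians without senEC replicate 5; in the middle panel, EGCG-treated senECs against senECs, all 7 orange lines lie between -0.01 and 0.05.

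When co-cultures were set against mono-culture, 36 of the 46 genes lay above 0 with control ECs (49.5% of the background), with a median of 0.05 and none at an unadjusted p under 0.05 (7.98%). Groups did not overlap for 3 genes that were higher (PSMC3, PSMD11 and PSMG3, against 7.42%) and 1 that was lower (PSMD3, against 7.8%). The immunoproteasome was the 1 class with a median below 0 here, at -0.07, and 4 of its 5 genes lay below 0. Without control EC replicate 3 the median of the 46 genes was -0.01. With senECs 45 of the 46 genes lay above 0 (54.1%), the median was 0.25, and 24 had an unadjusted p under 0.05, all higher, against 9.38% of the background. The groups did not overlap for 18 genes, all higher with senECs, against 12.5%. Without senEC replicate 5 the median was 0.12, 41 genes lay above 0 and 6 had an unadjusted p under 0.05. Over all 25873 genes the count at that p, in either direction, went from 2847 to 1598 without this library. With EGCG-treated senECs 40 of the 46 genes lay above 0 (53.2%), the median was 0.14, 6 had an unadjusted p under 0.05, all higher (5.89%), and 13 did not overlap, all higher (8.98%). For the mean of the 3 co-cultures 43 of the 46 genes lay above 0 (52.3%), the median was 0.14, and 11 had an unadjusted p under 0.05, all higher (7.78%). The groups did not overlap for 1 gene, PSMC3, against 3.09%. Without senEC replicate 5, 40 genes lay above 0, the median was 0.11 and 7 had an unadjusted p under 0.05, while the count over all 25873 genes went from 2772 to 2591. Other libraries moved the count of 11 as well, to 4 without mono-culture replicate 2, the lowest, and 15 without senEC replicate 1, the highest. The counts over all genes were then 1902 and 3112. These comparisons share the 3 mono-culture libraries.

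PSMB3, a structural beta subunit of the core, had 119, 128 and 114 CPM in mono-culture, 140.3, 122 and 141 CPM with control ECs, 144, 152 and 204 CPM with senECs, and 138, 167 and 161 CPM with EGCG-treated senECs. All senEC libraries lay above all libraries of mono-culture and of control ECs, and 1 of the 9 co-culture libraries, control EC replicate 2, fell within the range of mono-culture. Its log2 fold change was 0.33 ± 0.10 (SE) for the mean of the 3 co-cultures against mono-culture (edgeR adjusted p = 0.196), the smallest p of the 46 genes there, and 0.28 without senEC replicate 5. For senECs against mono-culture it was 0.47 ± 0.12 (edgeR adjusted p = 0.133), and 0.30 ± 0.11 without senEC replicate 5. For senECs against control ECs it was 0.31 ± 0.12 (edgeR adjusted p = 0.728) and 0.14 without that library. The match to the antioxidant response element is the one printed above.

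The other 6 beta genes lay between 0.17 and 0.27 for senECs against control ECs. PSMB1 had 188, 223 and 222 CPM in mono-culture, 204, 201 and 232 CPM with control ECs, 216, 235 and 312 CPM with senECs, and 197, 239.9 and 227 CPM with EGCG-treated senECs. It was 1 of the 3 genes with the smallest p for EGCG-treated senECs against senECs, at -0.20 ± 0.13 (edgeR adjusted p = 1), and -0.03 without senEC replicate 5. Apart from senEC replicate 5 all its libraries lay between 188 and 239.9 CPM.

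PSMA4, an alpha subunit, led the 46 genes in that comparison. It had 179, 199.8 and 195 CPM in mono-culture, 179, 174 and 214 CPM with control ECs, 192, 220.0 and 296 CPM with senECs, and 173, 226 and 196 CPM with EGCG-treated senECs. The difference of EGCG-treated senECs from senECs was -0.25 ± 0.14 (edgeR adjusted p = 1), and -0.05 without senEC replicate 5, which held the one value above 226 CPM.

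Among the ATPases of the cap, PSMC3 had 209, 191 and 205 CPM in mono-culture, 230.3, 211 and 260.4 CPM with control ECs, 229.7, 247 and 346 CPM with senECs, and 235, 264 and 262 CPM with EGCG-treated senECs. All 9 co-culture libraries lay above the 3 of mono-culture. The log2 fold change was 0.33 ± 0.11 for the mean of the co-cultures (edgeR adjusted p = 0.235), 0.21 for control ECs, 0.44 for senECs and 0.33 for EGCG-treated senECs, each against the same mono-culture libraries. The value without senEC replicate 5 was 0.24 for senECs, below that for EGCG-treated senECs, and 0.26 for the mean of the co-cultures.

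PSMC5, the next ATPase by p, had 119.5, 113 and 116 CPM in mono-culture, 126, 113 and 140.3 CPM with control ECs, 134, 143 and 197 CPM with senECs, and 132, 155 and 143 CPM with EGCG-treated senECs. The libraries of senECs and of EGCG-treated senECs all lay above those of mono-culture, and control EC replicate 2 did not. Its difference was 0.29 ± 0.11 for the mean of the co-cultures (edgeR adjusted p = 0.315) and 0.32 ± 0.13 for senECs against control ECs (edgeR adjusted p = 0.728), and without senEC replicate 5 these were 0.22 and 0.13. Exons of FTSJ3 lie opposite 19.5% of its exon bases.

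PSMC6 had 103, 114 and 105 CPM in mono-culture, 98.5, 95.4 and 115 CPM with control ECs, 107, 113 and 136 CPM with senECs, and 97.8, 114 and 102 CPM with EGCG-treated senECs, so that the ATPases did not all follow PSMC3. EGCG-treated senECs differed from senECs by -0.18 ± 0.11 (edgeR adjusted p = 1), and by -0.07 without senEC replicate 5.

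Of the 11 other cap subunits, PSMD3 had the narrowest spread between the libraries of a group and was picked here after its values were seen. It had 240.3, 239 and 244 CPM in mono-culture, 237, 225 and 236 CPM with control ECs, 251, 262 and 279 CPM with senECs, and 249.8, 249.6 and 243 CPM with EGCG-treated senECs. The 3 senEC libraries were the highest of the 12, replicate 5 aside too, and the 3 control EC libraries the lowest. The difference between senECs and control ECs was 0.18 ± 0.09 (edgeR adjusted p = 0.728), and 0.14 without senEC replicate 5. The remaining cap subunits ranged from 0 for PSMD11 to 0.28 in this comparison.

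**Figure D4:**
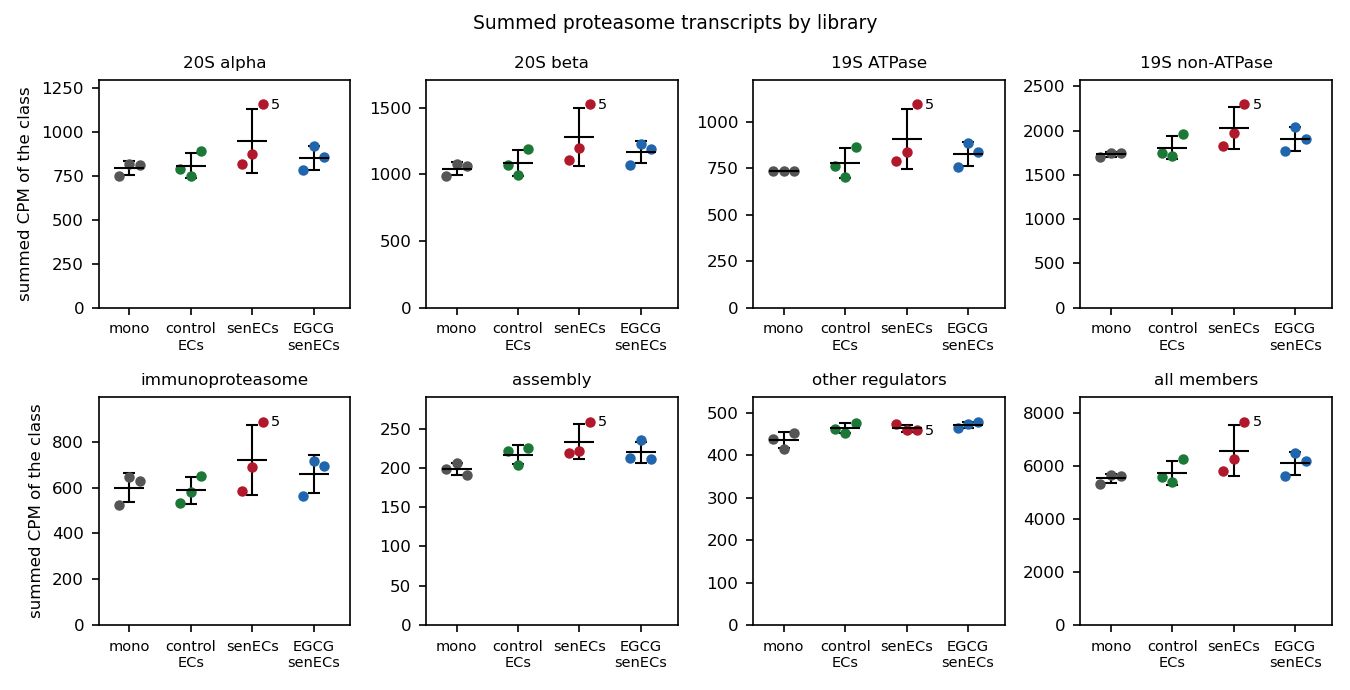
Summed CPM of the genes of each class is plotted by group, 1 dot per library, with the mean and SD of 3 libraries in black; the dot marked 5 is senEC replicate 5. This library is the highest in every panel but that of the other regulators, where the 12 libraries lie between 415 and 479 CPM.

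The constitutive catalytic subunits were close to each other in pattern. PSMB5 had 82.9, 94.5 and 89.5 CPM in mono-culture, 89.1, 89.1 and 96.6 CPM with control ECs, 92.6, 102 and 115 CPM with senECs, and 97.3, 103 and 93.2 CPM with EGCG-treated senECs. PSMB6 had 43.8, 51.7 and 46.2 CPM in mono-culture, 53.3, 43.8 and 53.4 CPM with control ECs, 50.8, 60.0 and 71.1 CPM with senECs, and 53.2, 58.5 and 61.2 CPM with EGCG-treated senECs. PSMB7 had 113, 116 and 122 CPM in mono-culture, 125, 112 and 148 CPM with control ECs, 128, 136 and 168 CPM with senECs, and 122, 138 and 126 CPM with EGCG-treated senECs. In all 3 the groups overlapped between senECs and control ECs, where the log2 fold changes were 0.17 ± 0.10, 0.27 ± 0.13 and 0.17 ± 0.12 in this order. Leaving out senEC replicate 5 gave 0.09, 0.14 and 0.04. Their differences between EGCG-treated senECs and senECs were -0.08, -0.07 and -0.16, and without that library the sign turned for PSMB5 (0.0027) and PSMB6 (0.06) and the difference of PSMB7 was -0.04.

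The immunoproteasome counterparts were well above 0 in every library. PSMB8 had 162, 204 and 199 CPM in mono-culture, 179, 198 and 216 CPM with control ECs, 186, 224 and 286 CPM with senECs, and 182, 227 and 227 CPM with EGCG-treated senECs. PSMB9 had 62.0, 78.9 and 73.6 CPM in mono-culture, 61.2, 72.5 and 79.2 CPM with control ECs, 65.1, 83.1 and 102 CPM with senECs, and 69.1, 83.6 and 83.1 CPM with EGCG-treated senECs. In both genes the library numbered 1 was the lowest of its group in all 4 groups. For senECs against control ECs both had a log2 fold change of 0.23 ± 0.14, and without senEC replicate 5 PSMB8 had 0.05 and PSMB9 had 0.06. PSMB10 had 47.2, 57.4 and 63.6 CPM in mono-culture, 49.2, 48.0 and 51.9 CPM with control ECs, 52.4, 52.1 and 70.8 CPM with senECs, and 49.6, 52.9 and 56.8 CPM with EGCG-treated senECs. Between control ECs and mono-culture it had a log2 fold change of -0.17 ± 0.13 (edgeR adjusted p = 0.911), and its senEC libraries lay above those of control ECs by 0.23 ± 0.13 (edgeR adjusted p = 0.728), 0.07 without senEC replicate 5.

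The activator genes had the largest differences of the 46 between senECs and control ECs. PSME1 had 91.4, 117 and 109.6 CPM in mono-culture, 86.6, 98.7 and 112 CPM with control ECs, 99.4, 124 and 161 CPM with senECs, and 90.6, 126 and 115 CPM with EGCG-treated senECs. PSME2, the partner that forms the ring with it, had 163, 189 and 182 CPM in mono-culture, 158, 162 and 189.7 CPM with control ECs, 183, 206 and 267 CPM with senECs, and 170.4, 225 and 213 CPM with EGCG-treated senECs. The log2 fold change was 0.37 ± 0.16 for PSME1 and 0.37 ± 0.13 for PSME2 (edgeR adjusted p = 0.728 for each), and the groups overlapped in both genes. Without senEC replicate 5 these were 0.17 and 0.20. Against mono-culture, control ECs gave -0.09 and -0.07 for the pair.

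The balance of the 2 forms was followed as the ratio of counts of each immunoproteasome subunit to the subunit it replaces. PSMB8/PSMB5 was 2.11 ± 0.14 for mono-culture, 2.16 ± 0.13 for control ECs, 2.23 ± 0.24 for senECs and 2.17 ± 0.28 for the EGCG-treated ones (SD, n = 3 each). PSMB9/PSMB6 was 1.51 ± 0.09, 1.43 ± 0.26, 1.37 ± 0.08 and 1.36 ± 0.07, and PSMB10/PSMB7 was 0.477 ± 0.054, 0.391 ± 0.039, 0.405 ± 0.021 and 0.413 ± 0.034 in the same order. All differences between co-cultures were within the spread of the libraries. For PSMB10/PSMB7 mono-culture ran from 0.416 to 0.520 and the co-cultures from 0.350 to 0.450, which overlapped. In PSMB8/PSMB5 the library numbered 1 was the lowest of each group, at 1.96, 2.01, 2.01 and 1.87, and senEC replicate 5 and EGCG-treated senEC replicate 5 were the highest of the 12 at 2.49 and 2.44. With 3 libraries per group an exact permutation test of 1 ratio cannot go below p = 0.1, and none was made. Per length the PSMB9/PSMB6 ratio in mono-culture was 0.712 with all exons and 1.65 with the principal transcripts, so that which of the pair has more transcripts is not settled by these counts.

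**Figure D5:**
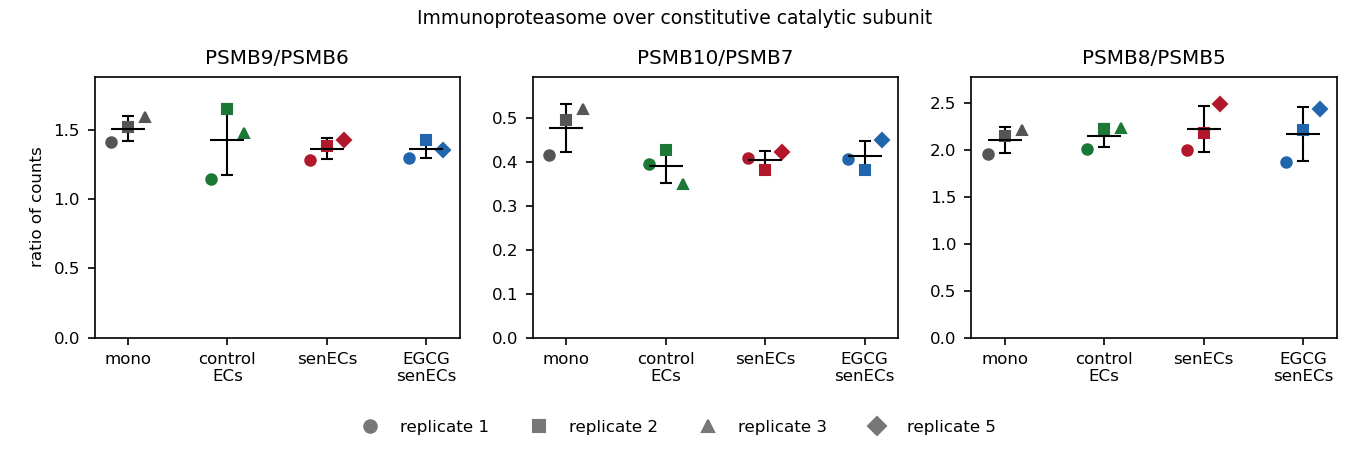
The ratio of counts of each immunoproteasome subunit to the constitutive subunit of the same site is plotted for the 12 libraries, with the mean and SD of 3 libraries in black and the marker giving the replicate number. The 3 co-culture groups overlap in all 3 panels, and the circles, replicate 1, are lowest in every group of the PSMB8/PSMB5 panel.

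Assembly factors and the remaining regulators had the lowest class medians for senECs against control ECs, although the assembly factors had the highest for control ECs against mono-culture, at 0.12. Of the 7 assembly factors, which build the alpha ring (PSMG1 to PSMG4) or hold the ATPases before the cap is complete (PSMD5, PSMD9 and PSMD10), 6 lay above 0 for senECs against control ECs, with a range of -0.01 (PSMD5) to 0.21, and none had an unadjusted p under 0.05. PSMD5 had 27.4 to 33.3 CPM in mono-culture and between 32.5 and 34.9 CPM in all 9 co-culture libraries. PSME3 had 228 to 272 CPM and PSME4, the activator found in the nucleus, 142 to 160.0 CPM over the 12 libraries, and the lowest PSME4 value was that of senEC replicate 5. PSMF1 lay between 41.9 and 55.1 CPM. For these 3 genes the log2 fold changes of senECs against control ECs were 0.03 ± 0.09, -0.06 ± 0.09 and 0.09 ± 0.10.

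The pathway around the proteasome was read from 4 lists, chosen like the members with earlier results known, of which no gene was called in any comparison by edgeR. Of the 13 partners outside the symbol rule 11 lay above 0 for senECs against control ECs, against 56.6% of the background, with a median of 0.07. At an unadjusted p under 0.05 were POMP (0.33 ± 0.14), the chaperone of the beta ring, and ADRM1 (0.26 ± 0.12), a ubiquitin receptor of the cap. Of the background, 4.33% was higher at that p. SEM1, a small cap subunit, had 0.30 ± 0.16. The median of the list was 0.03 without senEC replicate 5, and POMP then had 0.11, ADRM1 0.10 and SEM1 0.02. Of the 10 genes of the NFE2L1 route, 6 lay above 0, near the 56.6% of the background, with a median of 0.02. NFE2L1 itself had 0.04 in this comparison and 0.20 ± 0.08 for the mean of the co-cultures against mono-culture (edgeR adjusted p = 0.394), and DDI2, the protease that releases it, had -0.17 in both. DDI2 turned to 0.05 without senEC replicate 5 in the first and had -0.09 in the second, where NFE2L1 had 0.21. Of the 11 genes of ubiquitin supply and shuttles, 7 lay above 0 for senECs against control ECs, again near 56.6%, with a median of 0.07, and 0.01 without that library.

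Of the 12 genes of the class I peptide route, 8 lay above 0 for senECs against control ECs (56.6% of the background) with a median of 0.10, and 0.03 without senEC replicate 5. TAP1, which shares the promoter of PSMB9, had 0.10 there and 0.24 ± 0.08 for the mean of the co-cultures against mono-culture (edgeR adjusted p = 0.240), with no overlap of the groups, while PSMB9 had 0.12 ± 0.12 in the latter with overlap. ERAP2, which trims the peptides, had -0.59 ± 0.16 against mono-culture (edgeR adjusted p = 0.135), and its groups did not overlap. Of the background, 3.09% was higher and 2.38% lower without overlap in that comparison. The fold changes against mono-culture were 0.22 for TAP1, 0.06 for PSMB9 and -0.59 for ERAP2 without senEC replicate 5. The median of all 12 genes was 0.07 in that comparison, against 0.14 for the 46 proteasome genes and -0.02 for all genes tested.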

How the data were processed

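RNA-sequencing covered 12 libraries of THP1 cells in 4 groups of 3. The deposited values are raw counts by symbol, which the authors made from reads aligned with HISAT2 to hg38. The counting program and annotation are not given in the sources used here. A further 4 count columns match no described sample and were not used. Differential expression was tested with edgeR 4.0.16 in R 4.3.3 (quasi-likelihood, TMM, Benjamini-Hochberg adjustment over all genes), with all 12 libraries in 1 model with group as its term, on the 25873 genes whose counts summed to 10 or more, and the threshold was an adjusted p of 0.05. DESeq2 1.42.0, other filters and scalings, a replicate block and each library left out were alternatives. CPM used TMM library sizes, and lengths came from GENCODE 29. The fit was checked on simulated counts. The interval for 0 counts takes 3 counts and covers counting error alone. The members and lists were chosen with earlier results of these data known. Genes given by library were PSMB5 to PSMB10, PSME1, PSME2 and the 3 smallest p-values of 3 comparisons, and in each class the highest and lowest level per length was named. PSMD3 and the ranges of other genes were added after their values were seen. Replicate pairs differed by more than sampling noise (chi-square over degrees of freedom 10.3 to 38.2). Tables and figures used Python 3.11.15. Some genes of the pathway lists are not reported here.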

Additional observations from a re-analysis of the deposited data

How the results depend on the processing

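By edgeR and DESeq2 the count of proteasome genes called was 0 in the 3 comparisons between co-cultures, in that of control ECs with mono-culture and in that of EGCG-treated senECs with mono-culture, under every alternative run. For senECs against mono-culture it was 0, but 1 with DESeq2 (PSMB3), 4 with every gene that had a count, 5 with a replicate block, and 0 to 3 with single libraries left out, where 3 (PSMB3, PSMC3 and PSMC5) came without senEC replicate 1. All genes called in this comparison, 80 of 25873, rose with these settings too, to 347 with DESeq2, 588 of 34767 with every gene that had a count, 709 with the block and 260 without senEC replicate 1. For the mean of the 3 co-cultures it was 0, but 2 (PSMB3 and PSMC3) with every gene that had a count and 2 with the replicate block. All genes called in this comparison, 187 of 25873, rose to 582 of 34767 with every gene that had a count. The block was an alternative alone, since libraries of a number did not all deviate together: the correlations of their deviations were 0.501, 0.093 and 0.416 for mono-culture with control ECs and 0.554, 0.070 and 0.344 for senECs with EGCG-treated senECs, and 8 of the 12 libraries correlated best with one of their own number. Libraries numbered 3 also correlated with those numbered 5, which the block holds apart. With senEC and EGCG-treated senEC replicate 5 the values were 0.370 and 0.425 for mono-culture replicate 3, and 0.534 and 0.472 for control EC replicate 3. The block added calls of proteasome genes in 2 comparisons and none in the other 5, while calls over all genes rose in every comparison, from 0 to 153 for senECs against control ECs and from 187 to 824 for the mean of the co-cultures.

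With single libraries left out, the median log2 fold change of the 46 genes ran from 0.0686 to 0.269 for senECs against control ECs, from -0.20 to 0.01 for EGCG-treated senECs against senECs, from 0.01 to 0.13 between EGCG-treated senECs and control ECs, from -0.01 to 0.11 for control ECs, 0.12 to 0.32 for senECs, 0.09 to 0.18 for EGCG-treated senECs and 0.11 to 0.16 for the mean of the co-cultures, each against mono-culture. Leaving out senEC replicate 5 moved 2 of these medians by more than the spread between replicates, to 0.0686 against control ECs and 0.123 against mono-culture. That spread was the pooled SD of the mean log2 CPM of the members, 0.1227. The median of EGCG-treated senECs against senECs moved by less than this but changed sign, from -0.11 to 0.01. Library totals without TMM, added after the data were seen, lowered the median of senECs against control ECs to 0.13, and all genes to -0.07. No result reversed among those called, as none was called. Depth limits most the 4 genes with the fewest reads, PSMA2, PSMA6, PSMD9 and PSMG4.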
